A study of Mus musculus with 49 samples.

Results

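Frontal cortex of mice labelled AKO (amylin knockout) after 4 months of high fat diet was set against frontal cortex of wild-type (WT) mice after 2 months of the same kind of diet. The members were chosen by their title labels, and 19 of the 49 libraries of the series belong to this comparison: 10 labelled AKO and 9 WT at 2 months. All 49 libraries came from mice on a high fat diet; a group of 10 WT libraries at 4 months is used beside the comparison to show what holds against a second WT group. Genotype label and diet time (with age) differ together between AKO-labelled mice and WT mice at 2 months, so their shares in a difference cannot be told apart here. The labels give no strain, sex, age, litter or batch, and no account of how the AKO allele was made. The labels do not say what the numbers in the titles stand for or that libraries of a group came from separate animals; the p-values therefore reflect variation among libraries, part of which may be technical.

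Amylin, encoded by Iapp, is a peptide hormone that beta cells of the pancreas secrete along with insulin. It acts on receptors built from the calcitonin receptor and a RAMP protein, best known in the hindbrain and hypothalamus. In the cortex, immediate early genes are switched on within minutes of neuronal activity and include transcription factors of the Fos and Egr families, the synaptic regulator Arc and the growth factor Bdnf. The cyclic AMP response element is a promoter motif through which the factor CREB acts at many of these genes.

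Depth, in M reads (reads divided by 1e6), was 31.7 to 75.6 in the AKO-labelled group (median 39.8), 31.0 to 52.9 in WT at 4 months (median 37.8) and 33.8 to 68.2 in WT at 2 months (median 42.9). Levels are given as log2 of normalised reads plus 1, and a difference of 1 on this scale is a factor of 2. Slc17a7, the vesicular glutamate transporter of cortical excitatory neurons, was high in every library, at 15.99 to 16.27 in AKO-labelled, 15.82 to 16.32 in WT 4-month and 16.02 to 16.43 in WT 2-month libraries. Markers of tissue next to the cortex were also present and varied between libraries. Some libraries stood apart from the rest of their group. The AKO-labelled libraries numbered 14 and 19 had the highest summed level of olfactory mucosa markers of their group, at 15.89 and 15.42. The other 8 AKO-labelled libraries were at 14.61 to 15.03. This sum includes Chga, also a neuronal granule gene, so it does not measure mucosa RNA alone. It was 14.44 to 15.01 in WT 2-month libraries, whose median for the mucosa marker Cyp2g1 was 1.83. Cyp2g1 was at 12.30 in number 14 and 11.34 in number 19, where the AKO-labelled median was 6.09. The WT 2-month library numbered 37 had the highest summed level of striatal, microglial and ribosomal protein genes of its group and the lowest of synaptic genes. The WT 2-month library numbered 36 had the lowest immediate early gene level of its group.

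Iapp was read in every library labelled AKO and in no WT library, which goes against a knockout of the transcript; the reads are counted per gene, and which part of Iapp they cover is not known. The AKO-labelled libraries held 36 to 116 Iapp reads each and 596 in all, with a level of 5.56 in the lowest, 5.74 in the median and 6.17 in the highest. WT libraries held none, out of 409.0 M reads at 4 months and 423.9 M reads at 2 months. Against a limit of 3 reads over the whole group, Iapp was at least 182-fold higher than in WT at 2 months and at least 176-fold higher than in WT at 4 months; the limits cover counting error only. Among the receptor genes, Calcrl rose by 0.33 ± 0.10 on the log2 scale (SE, adjusted p = 0.027) and Ramp1 by 0.20 ± 0.06 (adjusted p = 0.037) against WT at 2 months. When set against WT at 4 months, Calcrl differed by -0.08 (adjusted p = 0.72) and Ramp1 by 0.06 (adjusted p = 0.65). Each of the calls for Calcrl and Ramp1 was lost when any of several single libraries was left out, among them AKO-labelled number 19 and WT 2-month number 32; without number 32 the adjusted p was 0.060 for Calcrl and 0.076 for Ramp1. Calcr, the core of the amylin receptor, ranged from 0.00 to 7.71 in AKO-labelled and from 0.00 to 6.22 in WT 2-month libraries and did not pass (adjusted p = 0.14).

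Of 15300 genes tested between AKO-labelled libraries and WT at 2 months, 2598 (17%) passed an adjusted p of 0.05 with limma-trend, 1283 higher (8.39%) and 1315 lower (8.59%). Most differences were small. The median size over the called genes was 0.23 on the log2 scale, 1426 were under 0.25, and 98 were over 1, of which 73 were higher and 25 lower in the AKO-labelled group. The share of called genes that were higher was 49.4% here and 67.4% (1906 of 2826) when libraries were scaled to total reads, so the balance of directions depends on the scaling. The count was 4215 without the WT 2-month library numbered 37 and 1585 without the AKO-labelled libraries numbered 14 and 19. In 85 genes (0.556%) no AKO-labelled library overlapped any WT 2-month library, with the AKO-labelled group above in 33 and below in 52.

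Few of these differences also held against the WT group at the same diet time. Against WT at 4 months, 120 of 15185 genes passed (0.79%), 43 higher (0.283%) and 77 lower (0.507%), and 2123 had an unadjusted p under 0.05. Scaled to total reads, 51 were higher and 50 lower. Between WT at 4 months and WT at 2 months, 1330 of 15159 passed (8.77%), 697 higher (4.6%) and 633 lower (4.18%) in WT at 4 months; with limma-voom 840 were higher and 502 lower. Genes past both AKO comparisons with the same sign numbered 78 of 15146 (0.515%), 21 higher and 57 lower. The comparisons share the AKO-labelled libraries, and the difference between them is the contrast of the WT groups, so the count is a description with no test of the overlap. It was 44 without the AKO-labelled library numbered 8, 50 without number 6 and 45 without numbers 14 and 19. Without overlap with either WT group were 8 genes: Iapp, Gabra2, Nnt and Hmga2-ps1 above, and Fmn1, Fosb, Fosl2 and Gadd45b below.

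**Figure D1:**
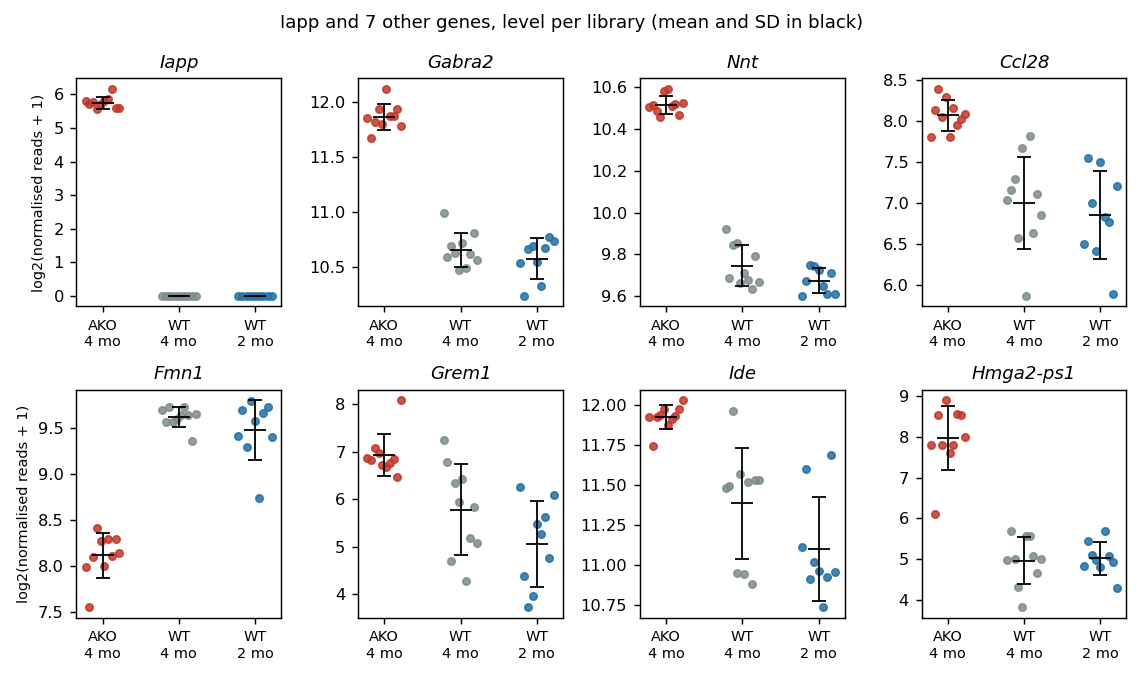
Level of 8 genes in each library (vertical axes, log2 of normalised reads plus 1), with AKO-labelled libraries at left, WT at 4 months in the middle and WT at 2 months at right; bars are the mean and SD. Gabra2 and Nnt stand above and Fmn1 below every library of both WT groups, Iapp is at 0 in every WT library, and Ide, Ccl28 and Grem1 overlap at least 1 WT group.

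Beyond Iapp, a small group of genes was shifted by a similar amount against both WT groups. Gabra2 encodes a subunit of the GABA-A receptor, the main inhibitory receptor of the brain, and lies on chromosome 5 (70957597 to 71095849, minus strand, GRCm38). Its level was 11.67, 11.86 and 12.12 (lowest, median, highest) in AKO-labelled libraries, 10.48, 10.63 and 10.99 in WT at 4 months, and 10.24, 10.67 and 10.78 in WT at 2 months. The AKO-labelled libraries were all above both WT groups. The difference was 1.29 ± 0.07 against WT at 2 months (SE, adjusted p = 5.6e-12), a factor of 2.44, and 1.21 against WT at 4 months. Of 14 GABA-A subunit genes tested, Gabra2 was the 1 that rose (7.14%, against 8.39% of all genes), and the median of the list was -0.02. The rises numbered 2 or 3 without AKO-labelled library 13, 14, 15 or 21 or WT 2-month library 37 or 39.

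Nnt, a mitochondrial inner membrane enzyme that makes NADPH from NADH, lies on chromosome 13 (119335448 to 119408997, minus strand, the span of 2 overlapping annotation entries of that name). Its level was 10.46, 10.51 and 10.59 in AKO-labelled libraries, 9.64, 9.70 and 9.92 in WT at 4 months, and 9.60, 9.67 and 9.75 in WT at 2 months. Every AKO-labelled library was above every WT library of both groups. Nnt rose by 0.84 ± 0.03 against WT at 2 months (adjusted p = 5.7e-14) and by 0.77 against WT at 4 months. Gabra2 and Nnt are both known to carry different alleles among inbred mouse strains, and the part of strain in these results was not tested. Of 18 mitochondrial NADPH enzymes tested, 6 rose (33.3%, against 8.39% of all genes) and none fell at adjusted p 0.05. The others that rose did so by less than Nnt. Among them, Glud1, glutamate dehydrogenase, rose by 0.19 ± 0.03 and Nadk2, the mitochondrial NAD kinase, by 0.22 ± 0.04. In the comparison with WT at 4 months, Glud1 differed by 0.07 (adjusted p = 0.37) and Nadk2 by 0.02 (adjusted p = 0.89).

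Ccl28, a chemokine of mucosal surfaces, has its left end 288 kb from that of Nnt. It was at 7.80, 8.07 and 8.39 in AKO-labelled libraries, 5.86, 7.07 and 7.82 in WT at 4 months, and 5.88, 6.83 and 7.55 in WT at 2 months, and rose by 1.22 ± 0.17 against WT at 2 months (adjusted p = 0.00013), without overlap against that group, and by 1.07 against WT at 4 months (adjusted p = 0.0021). Of the 10 tested genes within 1 Mb of Nnt, 2 were called, Nnt and Ccl28, a share near that of all genes.

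Fmn1, a formin that nucleates actin filaments, lies on chromosome 2 (113327736 to 113716767, plus strand). Its level was 7.55, 8.13 and 8.41 in AKO-labelled libraries, 9.36, 9.64 and 9.73 in WT at 4 months, and 8.74, 9.58 and 9.79 in WT at 2 months. Fmn1 fell by 1.36 ± 0.12 against WT at 2 months (adjusted p = 5.1e-07) and by 1.49 against WT at 4 months. The lowest WT library was number 37 at 2 months, still above every AKO-labelled library. The next gene, Grem1 (113746164 to 113758646, minus strand), a secreted inhibitor of bone morphogenetic proteins, moved the other way. It was at 6.46, 6.85 and 8.09 in AKO-labelled libraries and at 3.72, 5.28 and 6.27 in WT at 2 months, and rose by 1.87 ± 0.30 (adjusted p = 0.00052); against WT at 4 months, where it was at 4.29, 5.90 and 7.25, the difference of 1.15 did not pass (adjusted p = 0.085). Scg5, a secretory granule chaperone whose left end lies 449 kb from that of Fmn1, rose by 0.27 ± 0.04 and passed both comparisons. Together these 3, Fmn1 itself included, were the called genes among 13 tested within 1 Mb of Fmn1 (23.1%, against 17% of all genes).

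Ide, the insulin-degrading enzyme, which also cuts amylin and amyloid beta, lies on chromosome 19 (37268743 to 37337852, minus strand). Its level was 11.75, 11.93 and 12.03 in AKO-labelled libraries, 10.88, 11.50 and 11.97 in WT at 4 months, and 10.73, 10.96 and 11.69 in WT at 2 months. AKO-labelled libraries were all above WT at 2 months but overlapped WT at 4 months. The difference was 0.82 ± 0.10 against WT at 2 months (adjusted p = 4.7e-05) and 0.54 against WT at 4 months (adjusted p = 0.018). Its neighbours Fgfbp3, a binding protein of fibroblast growth factors, and Btaf1, a regulator of the TATA-binding protein, rose by 0.89 ± 0.12 and 0.67 ± 0.11 against WT at 2 months. Neither Fgfbp3 (0.43, adjusted p = 0.060) nor Btaf1 (0.37, adjusted p = 0.15) passed against WT at 4 months. The other called genes of the 17 tested within 1 Mb of Ide fell, Hectd2 by 0.25 and Lgi1 by 0.12. With Ide itself, 5 were called (29.4%, against 17% of all genes). These neighbours were chosen after their values were seen.

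Hes5, a repressor that Notch signalling switches on, was at 9.65, 10.003 and 10.38 in AKO-labelled libraries, 8.33, 9.26 and 9.73 in WT at 4 months, and 8.93, 9.14 and 9.74 in WT at 2 months. It rose by 0.82 ± 0.10 against WT at 2 months (adjusted p = 4.6e-05) and by 0.98 against WT at 4 months (adjusted p = 0.013). Of 18 Notch genes tested, Hes5, Notch3 and Nrarp rose (16.7%), and Dtx1 and Hes1 fell (11.1%), Hes1 by 0.30 ± 0.07. Over all genes tested, 8.39% rose and 8.59% fell. In the Notch list 14 were higher and 4 lower. The rises numbered 5 without WT 2-month library 37, and against WT at 4 months Hes5 and Nrarp rose and no Notch gene fell. Hmga2-ps1, a pseudogene of the chromatin protein gene Hmga2, rose by 2.95 ± 0.27 against WT at 2 months (adjusted p = 8.7e-07). That was the largest rise among called genes with a mean of 1 CPM or more and a symbol that is no predicted model. Against WT at 4 months Hmga2-ps1 rose by 2.996. It was at 6.12, 7.90 and 8.90 in AKO-labelled libraries and at 4.31, 4.97 and 5.69 in WT at 2 months; its reads may be shared with Hmga2, so the source is uncertain.

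Immediate early genes made up the main group that was lower in AKO-labelled cortex against both WT groups. Of 28 tested, 26 fell and none rose at adjusted p 0.05 against WT at 2 months, where 17% of all genes were called and 8.59% fell; the median difference was -0.88, beside 0.01 over all genes tested. In the comparison with WT at 4 months 19 fell (median -0.74; 0.507% of all genes fell), and these 19 passed both comparisons, 24.4% of the 78 genes that did. Between the WT groups 2 fell (median -0.22; 4.18% of all genes fell). The 2 that did not pass against WT at 2 months were Nr4a2 (-0.36, adjusted p = 0.077) and Maff (-0.79, adjusted p = 0.060). Leaving out 1 library at a time gave 26 to 28 calls.

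Stretches of 5 promoters are shown because the genes below share a cyclic AMP response element half-site, TGACG or its reverse complement CGTCA, upstream of their starts. Capitals mark the half-sites, and each stretch runs 5′ to 3′ on the strand of the gene (RefSeq, GRCm38.p6): Fos chr12:85473804-85473848 plus strand, Fosb chr7:19310081-19310125 minus, Npas4 chr19:4990116-4990160 minus, Nr4a1 chr15:101266786-101266830 plus and Dusp1 chr17:26508588-26508632 minus.
Fos: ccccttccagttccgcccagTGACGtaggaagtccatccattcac
Fosb: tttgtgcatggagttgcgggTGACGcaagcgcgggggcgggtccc
Npas4: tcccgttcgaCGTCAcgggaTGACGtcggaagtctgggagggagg
Nr4a1: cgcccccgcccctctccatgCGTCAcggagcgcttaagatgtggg
Dusp1: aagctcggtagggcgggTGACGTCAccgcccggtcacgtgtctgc
The half-sites begin 66 bases before the annotated start in Fos, 60 in Fosb, 179 and 169 in Npas4, 40 in Nr4a1, and 143 and 140 in Dusp1, where they overlap to form the full element TGACGTCA. In the 250 bases before the start, on either strand, the half-site was found in 16 of the 21 immediate early genes with a window (76.2%), against 3505 of 12074 tested genes with a window (29.0%). The full element was in 3 of the 21 (14.3%), against 352 of the 12074 (2.92%), and the CArG box of serum response factor in 1 (4.76%), against 170 (1.41%). Among ribosomal protein genes, which rose, the half-site was in 24 of 56 (42.9%) and the full element in 5 (8.93%), also above the share of all tested genes. A match describes letters, not binding.

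**Figure D2:**
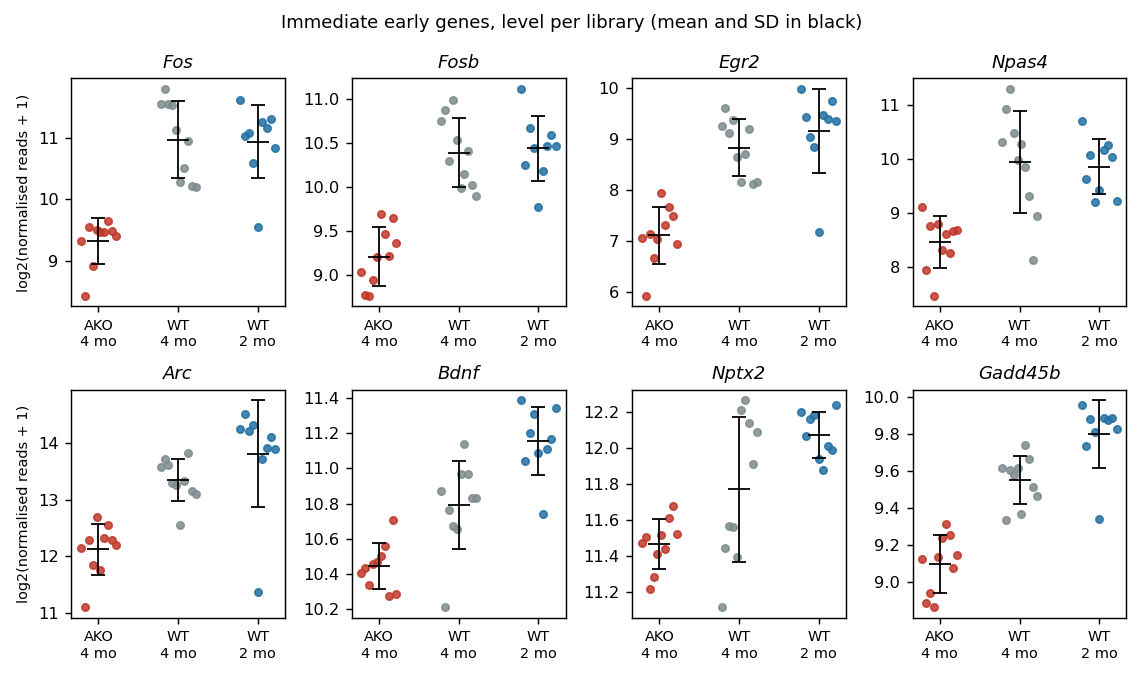
Level of 8 immediate early genes in each library (vertical axes, log2 of normalised reads plus 1), AKO-labelled at left, WT at 4 months in the middle and WT at 2 months at right; bars are the mean and SD. Fosb and Gadd45b in AKO-labelled libraries lie below all WT libraries, while in Fos, Egr2 and Arc the WT 2-month library numbered 36 falls among the AKO-labelled ones.

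Among the Fos-family transcription factors, Fos was at 8.42, 9.48 and 9.64 in AKO-labelled libraries, 10.20, 11.04 and 11.80 in WT at 4 months, and 9.55, 11.08 and 11.61 in WT at 2 months. Fos fell by 1.62 ± 0.22 against WT at 2 months (adjusted p = 0.00018) and by 1.66 against WT at 4 months. All AKO-labelled libraries were below the WT libraries except for the overlap with WT 2-month number 36. Fosb was at 8.76, 9.21 and 9.69 in AKO-labelled libraries, 9.90, 10.35 and 10.99 in WT at 4 months, and 9.77, 10.46 and 11.12 in WT at 2 months, with no overlap. It fell by 1.23 ± 0.15 (adjusted p = 7.9e-05), and Fosl2 fell by 1.12 ± 0.13 (adjusted p = 3.7e-05), again with no overlap. Junb, a partner of Fos proteins, fell by 0.98 ± 0.18 (adjusted p = 0.0022).

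The Egr zinc-finger factors fell together. Egr2 had the largest fall of all called genes, at 5.91, 7.09 and 7.93 in AKO-labelled libraries, 8.12, 8.91 and 9.61 in WT at 4 months, and 7.16, 9.39 and 9.98 in WT at 2 months, a difference of -2.04 ± 0.30 against WT at 2 months (adjusted p = 0.00044) and -1.72 against WT at 4 months. Egr1 fell by 1.10 ± 0.16, Egr3 by 0.91 ± 0.11 and Egr4 by 1.06 ± 0.17. Npas4, a neuronal factor switched on by calcium entry, was at 7.47, 8.65 and 9.11 in AKO-labelled libraries, 8.13, 10.13 and 11.29 in WT at 4 months, and 9.20, 10.04 and 10.70 in WT at 2 months. Npas4 fell by 1.39 ± 0.22 against WT at 2 months (adjusted p = 0.00056), without overlap, and by 1.48 against WT at 4 months (adjusted p = 0.039), with overlap. Of the nuclear receptors of the Nr4a family, Nr4a1 fell by 1.21 ± 0.22 and Nr4a3 by 1.05 ± 0.17.

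Among effector genes, Arc, which controls AMPA receptor traffic at synapses, was at 11.10, 12.24 and 12.69 in AKO-labelled libraries, 12.55, 13.31 and 13.82 in WT at 4 months, and 11.37, 14.10 and 14.51 in WT at 2 months. Its fall was 1.69 ± 0.33 (adjusted p = 0.0034), and the 11.37 was again library 36; the next lowest WT 2-month library was at 13.71. Bdnf was at 10.28, 10.44 and 10.71 in AKO-labelled libraries, 10.21, 10.83 and 11.14 in WT at 4 months, and 10.74, 11.17 and 11.39 in WT at 2 months. Bdnf fell by 0.71 ± 0.07 against WT at 2 months (adjusted p = 1.5e-06) and by 0.35 against WT at 4 months (adjusted p = 0.045), and WT at 4 months was itself 0.36 lower than WT at 2 months (adjusted p = 0.025). Nptx2, a secreted pentraxin that gathers AMPA receptors, fell by 0.61 ± 0.06 against WT at 2 months (adjusted p = 8.7e-07), with no overlap of the groups. Its difference from WT at 4 months, -0.31, did not pass (adjusted p = 0.29). Gadd45b, linked to DNA demethylation in active neurons, was at 8.87, 9.13 and 9.31 in AKO-labelled libraries, 9.34, 9.59 and 9.74 in WT at 4 months, and 9.34, 9.87 and 9.95 in WT at 2 months, and fell by 0.70 ± 0.07 (adjusted p = 5.6e-06). Of the feedback inhibitors of kinase signalling, Dusp1 fell by 0.86 ± 0.17 and Dusp6 by 0.61 ± 0.10.

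Genes past both comparisons outside that list included Atf3, a stress-induced transcription factor that fell by 1.28 ± 0.31, and Cyr61, a matricellular protein gene that fell by 1.22 ± 0.21. Ptgs2, the inducible cyclooxygenase, fell by 0.58 ± 0.08, and Pcsk1, a prohormone convertase, by 0.55 ± 0.10. These last 2 were chosen after their values were seen.

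Over all genes tested, 8.59% fell against WT at 2 months and 0.507% against WT at 4 months. Of 16 glucocorticoid-induced genes tested, 10 fell (62.5%) and none rose at adjusted p 0.05 against WT at 2 months (median -0.36). Of the same genes 4 fell against WT at 4 months (median -0.32). Between the WT groups limma-trend called none (median -0.03), and 1 had an unadjusted p under 0.05. Cdkn1a, the p21 cell cycle inhibitor, was at 9.76, 10.23 and 10.88 in AKO-labelled libraries, 10.50, 10.90 and 11.45 in WT at 4 months, and 10.78, 10.99 and 11.65 in WT at 2 months, and fell by 0.87 ± 0.14 (adjusted p = 0.00089). Errfi1, an inhibitor of the EGF receptor, fell by 0.35 ± 0.07, and Gjb6, an astrocyte gap junction gene, by 0.36 ± 0.07. Fkbp5, among the most used markers of glucocorticoid action, differed by -0.23 and did not pass (adjusted p = 0.10). Sgk1, a kinase gene of this list, and Per1, counted among the immediate early genes, fell by 0.62 ± 0.17 and 0.52 ± 0.14; both are known to respond to glucocorticoids as well as to activity.

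Of 19 circadian clock genes tested, 5 rose (26.3%) and 2 fell (10.5%), with a median of -0.07. Over all genes tested, 8.39% rose and 8.59% fell. Dbp, a clock output factor, was at 11.58, 11.96 and 12.34 in AKO-labelled libraries, 11.11, 11.32 and 11.67 in WT at 4 months, and 10.82, 11.35 and 11.99 in WT at 2 months, and rose by 0.57 ± 0.13 (adjusted p = 0.0082). Nfil3, a repressor that opposes Dbp at shared sites, fell by 0.62 ± 0.10 (adjusted p = 0.00049). Both held against WT at 4 months, with 0.59 for Dbp and -0.66 for Nfil3. The core genes Arntl (-0.22, adjusted p = 0.068) and Per2 (-0.11, adjusted p = 0.53) did not pass. Nr1d1, a core repressor, differed by -0.12 from WT at 2 months (adjusted p = 0.15) and rose by 0.35 against WT at 4 months (adjusted p = 0.00038), where WT at 4 months was 0.48 lower than WT at 2 months. The number of falls was 6 without WT 2-month library 37 and 4 without AKO-labelled library 21, 12 or 13.

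**Figure D3:**
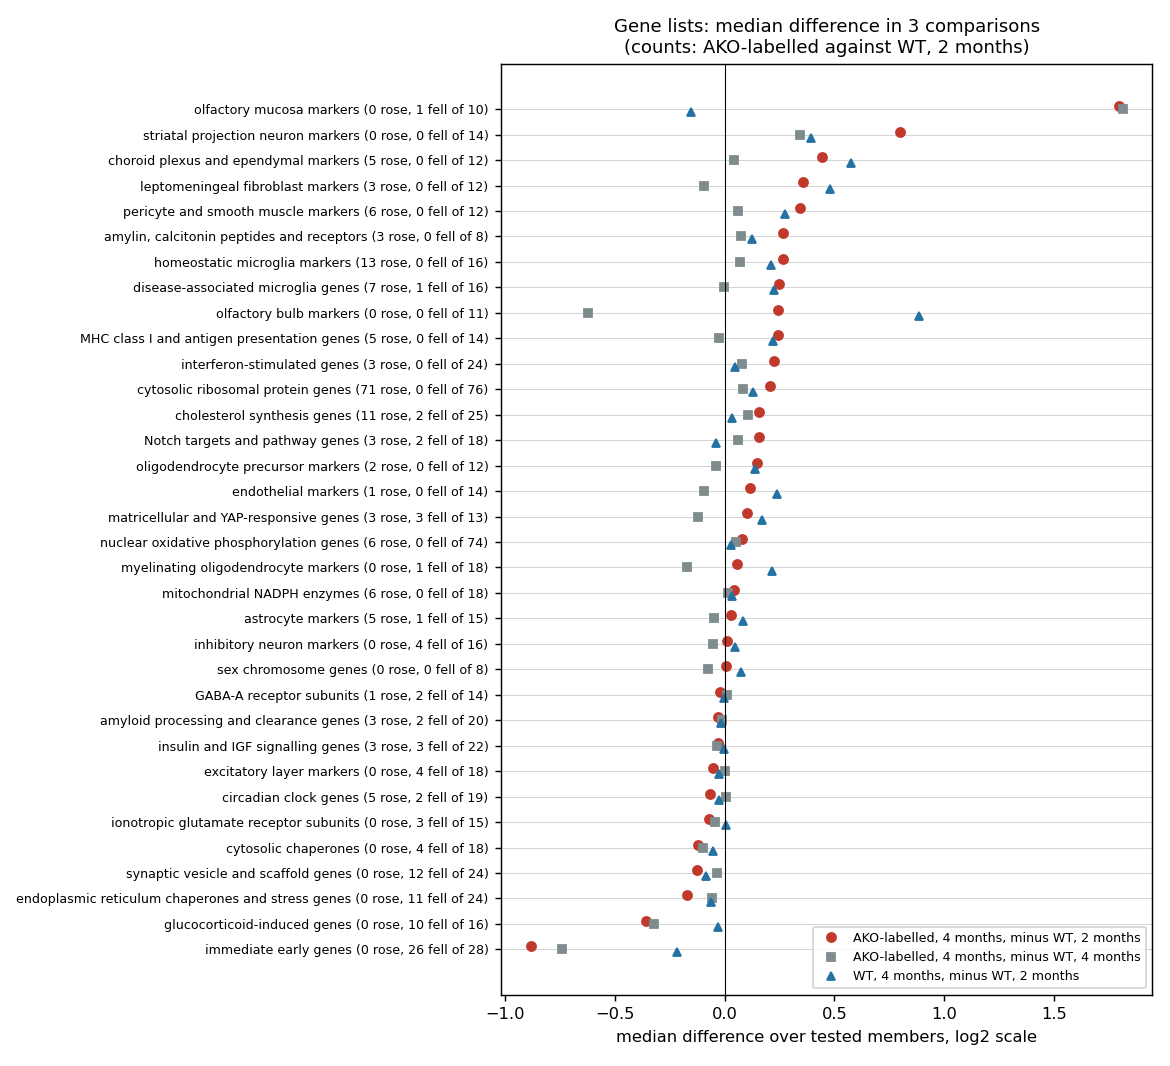
Median difference over the tested members of each gene list (horizontal axis, log2 scale): circles for AKO-labelled minus WT at 2 months, squares for AKO-labelled minus WT at 4 months, triangles for WT at 4 months minus WT at 2 months; counts are for the first. Immediate early genes are lowest in both AKO comparisons (-0.88 and -0.74), while the microglial median is 0.27 against WT at 2 months and 0.07 against WT at 4 months.

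Most ribosomal protein genes and microglial markers were higher in AKO-labelled cortex than in WT cortex at 2 months, and none of either was called against WT at 4 months. Of 76 cytosolic ribosomal protein genes tested, 71 rose and none fell (median 0.21; 8.39% of all genes rose). The 5 that did not pass were Rpl28, Rpl29, Rpl34, Rps26 and Rps27. No ribosomal protein gene was called by limma-trend against WT at 4 months (median 0.08), where 24 were higher at an unadjusted p under 0.05. WT at 4 months was itself higher than WT at 2 months in 26 (median 0.13; 4.6% of all genes). Since many ribosomal protein genes have processed pseudogenes, single values are uncertain where reads could be split.

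Rps27a, which encodes a ubiquitin and ribosomal protein fusion, was at 12.88, 13.08 and 13.30 in AKO-labelled libraries, 12.85, 12.97 and 13.18 in WT at 4 months, and 12.64, 12.73 and 13.03 in WT at 2 months. It rose by 0.33 ± 0.06 against WT at 2 months (adjusted p = 0.0010). Rpl35 was at 12.14, 12.29 and 12.47 in AKO-labelled libraries, 12.04, 12.20 and 12.31 in WT at 4 months, and 11.95, 12.01 and 12.28 in WT at 2 months, and rose by 0.27 ± 0.05 (adjusted p = 0.00079). In both genes the highest WT 2-month library was number 37. The summed ribosomal protein level was 19.27 to 19.60 in AKO-labelled libraries, 19.23 to 19.47 in WT at 4 months, and 19.14 to 19.25 in WT at 2 months except number 37, which was at 19.45. The count of rises was 65 to 73 with 1 library left out and 57 without AKO-labelled libraries 14 and 19.

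Starts of 2 of these genes are shown because messenger RNAs of the translation machinery are known for a tract of pyrimidines at the cap. The last 10 bases of each are the first transcribed by the RefSeq annotation (GRCm38.p6), with capitals for the unbroken pyrimidine tract from the start: Rpl35 chr2:39005122-39005141 minus strand, Rps25 chr9:44407704-44407723 plus.
Rpl35: ccgccctttcCTCTTTCTCT
Rps25: ccgacatcttagcgaggctg
A start of C followed by 4 pyrimidines was annotated in 14 of 56 ribosomal protein genes with a window (25%), against 363 of 12074 tested genes (3.01%). As with the promoter motifs, a gene with several annotated starts counted if any matched. Rps25, whose annotated start has no such tract, rose by 0.27 ± 0.05, the same rounded value as Rpl35. An annotated start can be a few bases off the start in use.

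Of 16 homeostatic microglia markers tested, 13 rose (81%, against 8.39% of all genes) and none fell (median 0.27). None was called by limma-trend against WT at 4 months (median 0.07), where 7 were higher at an unadjusted p under 0.05, and 9 were higher in WT at 4 months than in WT at 2 months (median 0.21). Cx3cr1, the fractalkine receptor, was at 11.30, 11.40 and 11.46 in AKO-labelled libraries, 11.12, 11.31 and 11.37 in WT at 4 months, and 10.89, 11.06 and 11.22 in WT at 2 months. It rose by 0.33 ± 0.04 (adjusted p = 1.7e-05), and AKO-labelled libraries did not overlap WT at 2 months. The purine receptor gene P2ry12 rose by 0.36 ± 0.05 and P2ry13 by 0.43 ± 0.06, while Tmem119 differed by 0.09 and did not pass (adjusted p = 0.28). In bulk tissue, more cells of a type and more RNA per cell cannot be told apart. Of 16 disease-associated microglia genes, 7 rose (44%) and Ctsb fell by 0.09. Trem2, a lipid-sensing receptor, rose by 0.37 ± 0.07 and Apoe, the main lipid carrier of the brain, by 0.34 ± 0.07. No gene of the 16 was called by limma-trend against WT at 4 months (median -0.002). There 1 was higher and 4 were lower at an unadjusted p under 0.05. Between the WT groups 7 rose in WT at 4 months (median 0.22). The summed level of the homeostatic markers was 14.73 to 14.89 in AKO-labelled libraries and 14.47 to 14.60 in WT at 2 months except number 37, at 14.74.

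Of 12 pericyte and smooth muscle markers tested, 6 rose (50%, against 8.39% of all genes) and none fell (median 0.34). Rgs5, a pericyte signalling regulator, rose by 0.30 ± 0.05 and Vtn, vitronectin, by 0.38 ± 0.09. Of 12 leptomeningeal fibroblast markers Dcn, Lum and Ogn rose (25%, median 0.36), and 1 did without AKO-labelled libraries 14 and 19. Those libraries had summed levels of 13.37 and 13.47, against 12.53 to 13.15 in the rest of their group. No fibroblast marker was called by limma-trend against WT at 4 months (median -0.09). Between the WT groups 3 rose in WT at 4 months (median 0.48). Of 14 endothelial markers, Emcn passed, with a rise of 0.45 ± 0.11, and 2 passed without AKO-labelled library 14 or WT 2-month library 37; 8.39% of all genes rose. Of 15 astrocyte markers, 5 rose (33.3%) and 1 fell (6.67%, against 8.59% of all genes). The water channel gene Aqp4 rose by 0.34 ± 0.09 and the gap junction gene Gja1 by 0.22 ± 0.05. Gfap did not pass (0.33, adjusted p = 0.15). Without AKO-labelled library 19, or without WT 2-month library 32, 34 or 35, the astrocyte rises numbered 3. Of 18 markers of myelinating oligodendrocytes, Enpp2 fell (5.56%) and none rose (median 0.06). Enpp2 lost its call in 12 of the 19 fits that left out 1 library, with limma-voom and when scaled to total reads. Mbp, a main myelin protein gene, differed by 0.08 (adjusted p = 0.71). Against WT at 4 months 2 fell (median -0.17), and 15 were lower at an unadjusted p under 0.05. Of 12 oligodendrocyte precursor markers 2 rose (16.7%), and 1 did without AKO-labelled library 19 or WT 2-month library 32, 33 or 35. For Cx3cr1, P2ry12, Rgs5, Vtn, Aqp4 and Gja1 the differences against WT at 4 months were 0.12, 0.10, 0.03, 0.04, 0.01 and -0.06, with no call.

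**Figure D4:**
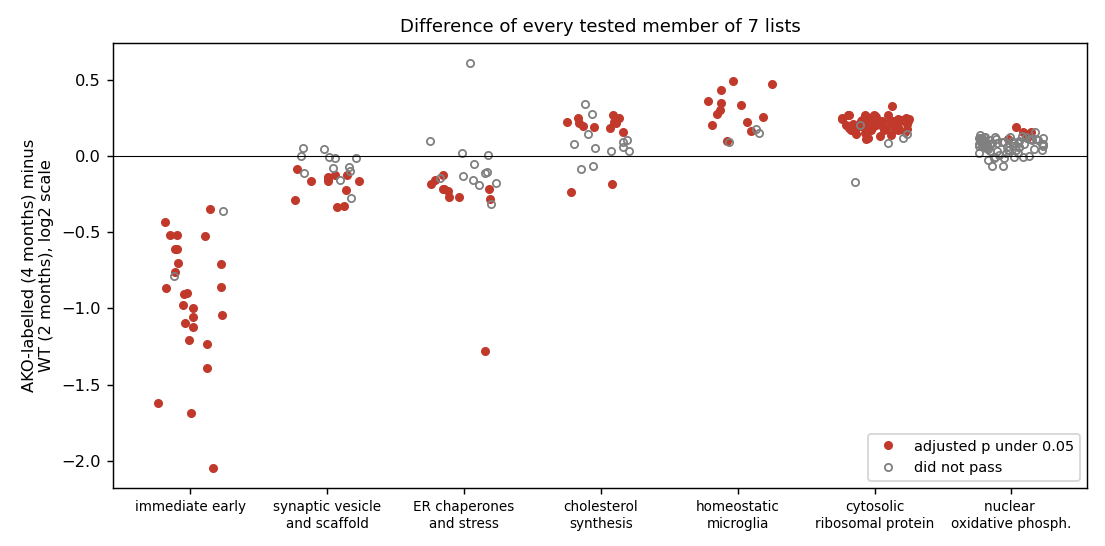
Difference between AKO-labelled libraries and WT at 2 months for each tested member of 7 gene lists (vertical axis, log2 scale; filled circles passed an adjusted p of 0.05, open circles did not). The 28 immediate early genes all lie below 0, the 16 microglial markers all lie above 0, and 75 of 76 ribosomal protein genes lie above 0.

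Of 24 synaptic vesicle and scaffold genes tested, 12 fell and none rose (median -0.13). Nrxn2, a presynaptic adhesion gene, was at 13.80, 14.03 and 14.10 in AKO-labelled libraries, 13.89, 14.002 and 14.20 in WT at 4 months, and 14.11, 14.29 and 14.47 in WT at 2 months, without overlap against the last. It fell by 0.29 ± 0.05 (adjusted p = 0.00056), and Syn1, the vesicle phosphoprotein synapsin, fell by 0.33 ± 0.07 (adjusted p = 0.0038). The differences from WT at 4 months were -0.03 in Nrxn2 and -0.10 in Syn1; no member was called there by limma-trend (median -0.04), and 1 was lower at an unadjusted p under 0.05. The count of falls was 8 to 14 with 1 library left out. Of 15 ionotropic glutamate receptor subunits, Grin1, Grik4 and Grik3 fell, Grin1 by 0.27 ± 0.06; 8.59% of all genes fell. Grik3 lost its call in 14 of the 19 fits that left out 1 library, and 5 subunits fell without WT 2-month library 37. Of 18 excitatory layer markers 4 fell, among them Slc17a7 (-0.20 ± 0.05), and of 16 inhibitory neuron markers the peptide genes Cort (-0.46), Crh (-0.53) and Cck (-0.27) fell with the calcium buffer Pvalb; without library 37, 3 inhibitory markers rose.

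Beside these neuronal and glial differences stand the markers of neighbouring tissue. All 14 striatal projection neuron markers were higher in AKO-labelled libraries than in WT at 2 months (median 0.80). None passed by limma-trend, 11 had an unadjusted p under 0.05, and 10 passed without WT 2-month library 37. Their summed level was 15.41 to 17.00 in AKO-labelled libraries, 14.47 to 16.88 in WT at 4 months, 14.74 to 16.28 in WT at 2 months without number 37, and 16.97 in number 37. The dopamine receptor gene Drd2 ranged from 8.42 to 10.52 in AKO-labelled libraries and from 5.26 to 10.47 in WT at 2 months. The olfactory mucosa marker Cyp2g1 ranged from 1.0 to 12.30 in AKO-labelled and from 0.00 to 8.64 in WT 2-month libraries; of 10 such markers 8 were higher in the AKO-labelled group (median 1.80), and 6 of 9 were higher against WT at 4 months at an unadjusted p under 0.05. The 1 that passed against WT at 2 months was Chga, which fell by 0.29 and is also a neuronal granule gene. Of 12 choroid plexus and ependymal markers 5 rose, but 0 did without WT 2-month library 32 or 35, and without AKO-labelled libraries 14 and 19; Ttr, the most abundant choroid plexus gene, was at 1.21 to 6.68 in AKO-labelled and at 1.18 to 5.66 in WT 2-month libraries. The part of tissue composition in the results was not tested.

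**Figure D5:**
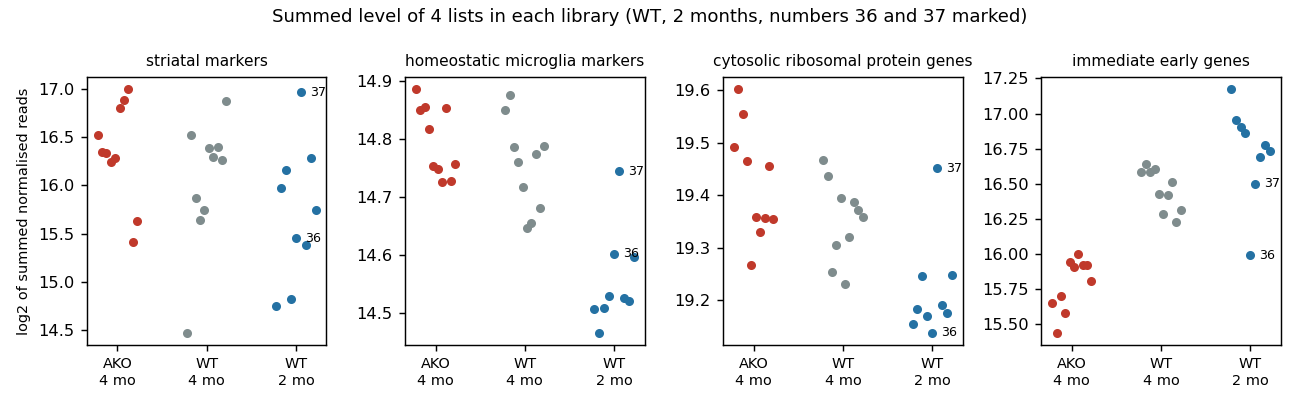
Summed level of 4 gene lists in each library (vertical axes, log2 of summed normalised reads), AKO-labelled at left, WT at 4 months in the middle and WT at 2 months at right, with WT 2-month libraries 36 and 37 marked. Number 37 lies at 16.97 for striatal and 19.45 for ribosomal protein genes, above the rest of its group, and number 36 lies at 15.99 for immediate early genes, among the AKO-labelled libraries.

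Several of the largest rises belonged to genes of low level with a wide spread. Clec12a, a myeloid lectin receptor, was at 5.02, 6.18 and 6.71 in AKO-labelled libraries and at 0.73, 4.34 and 6.10 in WT at 2 months, a rise of 2.02 ± 0.58 (adjusted p = 0.023). Ano2, a calcium-activated chloride channel, was at 7.24, 8.16 and 9.12 in AKO-labelled libraries and at 4.83, 6.24 and 8.24 in WT at 2 months, a rise of 1.84 ± 0.40 (adjusted p = 0.0055). The groups overlapped in both genes. Nkx2-1 (2.19), Chat (1.82), Six3os1 (2.27), Ccdc153 (2.19), Upb1 (1.82) and Gpx6 (2.60) also passed, but each lost its call when 1 or more single libraries were left out; Nkx2-1 and Chat are known from basal forebrain neurons. Among falls, Dct, a melanin synthesis enzyme, fell by 1.52 ± 0.42, and Erdr1 by 1.23 ± 0.22. Neither Dct nor Erdr1 passed against WT at 4 months. Xlr3b, one of a set of near-identical X-linked copies whose reads may be split, fell by 1.32 ± 0.44 and lost its call when most single libraries were left out.

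Of 25 cholesterol synthesis genes tested, 11 rose (44%), 2 fell (8%) and 12 did not pass (median 0.16). Over all genes tested, 8.39% rose and 8.59% fell. Against WT at 4 months 1 cholesterol gene rose and none fell (median 0.11), and none was called between the WT groups (median 0.03). Acat2, acetyl-CoA acetyltransferase, was at 10.86, 11.02 and 11.07 in AKO-labelled libraries, 10.67, 10.81 and 10.94 in WT at 4 months, and 10.47, 10.78 and 10.92 in WT at 2 months. It rose by 0.27 ± 0.05 against WT at 2 months (adjusted p = 0.0013) and by 0.20 against WT at 4 months (adjusted p = 0.0056). Fdft1, squalene synthase, rose by 0.20 ± 0.03 and Msmo1, a sterol demethylase, by 0.22 ± 0.04 against WT at 2 months, and Hsd17b7 and Ebp fell. The falls numbered 1 in 11 of the 19 fits that left out 1 library, among them those without AKO-labelled library 8 and WT 2-month library 32.

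Of 24 endoplasmic reticulum chaperones and stress genes tested, 11 fell (45.8%, against 8.59% of all genes) and none rose (median -0.17). Against WT at 4 months 2 of the 24 fell (median -0.06), and 10 were lower at an unadjusted p under 0.05. Between the WT groups 1 fell in WT at 4 months (median -0.06). Atf4, the central factor of the integrated stress response, was at 12.30, 12.43 and 12.55 in AKO-labelled libraries, 12.25, 12.51 and 12.64 in WT at 4 months, and 12.50, 12.65 and 12.80 in WT at 2 months, and fell by 0.22 ± 0.04 (adjusted p = 0.0019). Dnajb11 fell by 0.23 ± 0.05 and Sesn2 by 0.27 ± 0.05. Against WT at 2 months the falls numbered 7 without AKO-labelled library 19 or 7, and 6 when libraries were scaled to total reads. Of 18 cytosolic chaperones 4 fell (22.2%), Hspa4 by 0.18 ± 0.04, and 2 fell against WT at 4 months (median -0.10). Ddit3 (0.02, adjusted p = 0.88) did not pass.

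Calls among insulin and amyloid genes went in both directions. Of all genes tested, 8.39% rose and 8.59% fell. Of 22 insulin and IGF signalling genes tested, Ide, Igfbp5 and Foxo1 rose (13.6%), and Irs2, Igfbp4 and Irs1 fell (13.6%; median -0.03, or 0.01 when scaled to total reads). Irs2, an insulin receptor substrate, was at 9.70, 10.49 and 10.89 in AKO-labelled libraries, 10.49, 10.81 and 11.13 in WT at 4 months, and 10.32, 11.10 and 11.57 in WT at 2 months, and fell by 0.67 ± 0.16 (adjusted p = 0.0084). Igfbp5, an IGF-binding protein, rose by 0.38 ± 0.08. From WT at 4 months Irs2 differed by -0.40 (adjusted p = 0.11) and Igfbp5 by -0.02 (adjusted p = 0.95). Without WT 2-month library 37 the falls in this list numbered 6. Of 20 amyloid processing and clearance genes, Ide, Apoe and Clu rose (15%) and Ncstn and Bace1 fell (10%). App did not pass (-0.10, adjusted p = 0.097). Without library 37 the rises numbered 5 and the falls 7, and without AKO-labelled library 21 the falls numbered 5.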

How the data were processed

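Poly(A) RNA of frontal cortex was sequenced after stranded library preparation, per the labels. The deposited table held log2 values of 24495 genes; the sources used here do not give aligner, counter or build. Of its 50 value columns, 1 matched no sample and was not used. Values were log2 of reads divided by a size factor, plus 1: low values, up to 200 reads, were whole reads within 0.1 in 99.9% to 100.0% of cases per library, and 7 genes that were not were left out. Symbols turned into dates (27) were restored. Recovered reads of the closest 2 libraries of a group still differed (chi-square of at least 6.62 per gene), so none was counted as a duplicate.

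Genes were kept if they reached the equivalent of 10 reads (scaled to the median depth) in at least as many libraries as the smaller group holds, and 15 reads overall. They were tested with limma-trend (limma 3.58.1, R 4.3.3; robust, two-sided, Benjamini-Hochberg over all genes, adjusted p 0.05), on the deposited log2 scale with its pseudocount of 1, which understates changes of low genes. Each comparison used its own 2 groups, with no covariate. The fit was tested on simulated data. No test of overlap and no gene set test was run, and lists are given by counts and medians. Positions came from GENCODE M21 (GRCm38) by symbol and sequences from RefSeq. Named were Iapp, the 10 largest rises and 10 largest falls with a mean of 1 CPM or more and a symbol that is no predicted model, up to 3 called members of each list by smallest p, and the 10 smallest p past both AKO comparisons; others named serve as list examples or neighbours. The comparison, its members and the lists were chosen with earlier results of these data known. Alternatives covered scaling, filters, pseudocount, limma-voom, the groups in the model and leaving out libraries. Some genes are not reported here.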

Additional observations from a re-analysis of the deposited data

Results flagged for a closer look

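In groups of 9 or 10 libraries, the lowest or highest library was tested against the rest for each named gene, and 25 of 205 gene and group pairs (12.2%) had a gap to the next library above Dixon's limit; chance flags about 1 in 20. The value given is the gap as a share of the group's range.

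In WT at 2 months, library 36 was lowest in Arc (0.745), Gadd45b (0.647), Egr2 (0.592), Nfil3 (0.579) and Fos (0.504). Library 37 was highest in Rpl35 (0.681), Rps27a (0.581), Rps25 (0.532), Glud1 (0.516), Ramp1 (0.502) and Ifi27 (0.501), and lowest in Grik3 (0.626), Fmn1 (0.527) and Enpp2 (0.523). Library 35 was highest in the chaperone genes Dnajb11 (0.703), Hsph1 (0.7) and Hsp90aa1 (0.697), and library 32 was lowest in Msmo1 (0.581).

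Among AKO-labelled libraries, number 14 was highest in Gpx6 (0.724), at 11.44 against 5.82 in the next. Number 15 was highest in Grem1 (0.624) and lowest in P2ry12 (0.628) and Upb1 (0.508). Number 6 was lowest in Hmga2-ps1 (0.53) and Fmn1 (0.51), and number 16 was highest in Iapp (0.505).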

How the results depend on the processing

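No named gene changed direction under the alternatives run. The balance of calls against WT at 2 months did, with 1906 higher and 920 lower when scaled to total reads, and 1370 and 1197 when scaled to the upper quartile. The medians of the insulin, amyloid and GABA-A lists turned positive when libraries were scaled to total reads. The count of 2598 genes against WT at 2 months lay between 1844 and 4215 when 1 library was left out, the highest being without WT 2-month library 37, and was 1585 without AKO-labelled libraries 14 and 19 and 4112 with limma-voom quality weights. Other alternatives kept it within 1.5 times, from 1883 with all 49 libraries in 1 model to 3312 without libraries 37, 14 and 19 (added after the data were seen). The count past both comparisons, 78, lay between 44 (without AKO-labelled library 8) and 114 (without number 15), and was 36 with all 49 libraries in 1 model, 45 without libraries 14 and 19 and 49 without those and library 37. With all 49 libraries in 1 model, 50 genes passed against WT at 4 months and 875 between the WT groups. limma-voom gave 2710 genes, 67.3% of them higher. The cause of these shifts was not tested.

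AKO-labelled and WT 2-month titles share no number. Against WT at 4 months 5 numbers are shared. Same-numbered libraries had correlations of -0.25 to 0.08 in their deviations from the group means. Libraries of unlike number were not compared, so whether the numbers pair libraries is not settled. In those 10 libraries 13 genes passed, and 12 with a replicate block.

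Of 103 named genes, 82 kept their call with any 1 library left out and 66 under all 31 alternatives. Over all 15300 genes tested against WT at 2 months, the 95% interval of the difference had a median width of 0.139 on either side.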

Other observations

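Ide, Btaf1 and Fgfbp3, neighbours on chromosome 19, each varied among WT libraries. In WT at 2 months, libraries 39 and 33 were the highest in Ide (11.69 and 11.60, against 10.73 to 11.11 in the other 7), in Btaf1 (11.20 and 11.19, against 10.04 to 10.79) and in Fgfbp3 (8.04 and 7.96, against 7.19 to 7.95). In WT at 4 months, libraries 14, 21 and 23 were the lowest in Ide (10.95, 10.94 and 10.88, against 11.48 to 11.97 in the other 7) and in Btaf1 (10.64, 10.63 and 10.39, against 11.02 to 11.61), but in Fgfbp3 number 14 was the fourth highest of 10 (8.07). AKO-labelled libraries spanned 11.75 to 12.03 in Ide. The libraries were singled out after their values were seen, and no test was made.

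Where 8.39% of all genes rose, 3 of 24 interferon-stimulated genes (12.5%) rose against WT at 2 months and none fell at adjusted p 0.05 with limma-trend (median 0.23; 7 higher at an unadjusted p under 0.05): the immunoproteasome gene Psmb8 by 0.47 ± 0.11, Ifit3 by 0.66 ± 0.16 and Ifi27 by 0.26 ± 0.07. Of 14 MHC class I and antigen presentation genes 5 rose, among them H2-K1 by 0.28 ± 0.07 and the class II gene H2-Aa by 0.83 ± 0.26, and 2 or 3 rose without AKO-labelled library 6 or 19 or without WT 2-month library 33, 34 or 35. Against WT at 4 months H2-K1 differed by 0.09 and H2-Aa by -0.13, with no call. Of 74 nuclear oxidative phosphorylation genes 6 rose (8.11%), near the share of all genes, and the count ran from 1 to 29 with 1 library left out, the highest without WT 2-month library 37.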
